A study of Mus musculus with 8 samples.

Results

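The transcripts of 6 keratin genes (Krt7, Krt8, Krt18, Krt19, Krt14 and Krt5) and of Sprr1a, a gene of the skin barrier, were followed in mouse embryonic fibroblasts across genotype and ultraviolet (UV) light. The 7 genes were found by symbol among the 39175 genes of the deposited tables, and they had been chosen for how their untreated levels compare between the genotypes, which is therefore described below with no test. The cells came from p53-/-Cry1-/-Cry2-/- mice, called p53CryKO, and from p53-/- mice, called p53KO, all on the C57BL/6J background. All 4 groups therefore lack p53, the tumour suppressor encoded by Trp53, and there is no wild-type group; p53CryKO cells also lack the cryptochromes, repressors of the circadian clock. Cells of each genotype were given 40 J/m2 from a germicidal lamp emitting mainly at 254 nm and harvested 16 h later, or were left untreated. Poly(A) RNA was sequenced from 2 biological replicates per group, 8 samples in all, and the authors deposited a single pooled FPKM (fragments per kilobase of transcript, scaled to library size) for each gene and group. No spread between replicates can be computed from such values, the total counts per sample are unknown here, and the labels do not say whether a genotype is 1 line or several, so genotype and cell source cannot be told apart.

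Keratins are the intermediate filament proteins of epithelia. A type I (acidic) keratin pairs with a type II (basic) keratin, and the resulting heterodimers assemble into filaments; an unpaired keratin is usually degraded. Krt8 (type II) with Krt18 (type I) is the pair of simple epithelia, Krt7 and Krt19 are type II and type I keratins of simple and ductal epithelia and of mesothelium, and Krt5 with Krt14 is the pair of basal keratinocytes. Fibroblasts build their filaments mainly from vimentin. Sprr1a encodes a small proline-rich protein that transglutaminases link into the cornified envelope of keratinocytes, and it is also known as a gene induced by stress and injury outside the skin.

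The cells were checked against markers first. Vim, the gene of vimentin, stood at 4558 FPKM in UV-treated and 2256 FPKM in untreated p53CryKO cells, against 2502 FPKM in UV-treated and 1238 FPKM in untreated p53KO cells, and 22 of 24 fibroblast and mesenchyme genes reached 1 FPKM in a group. Of 30 epithelial genes, 5 did so, and Epcam, the epithelial adhesion molecule, was at or below 0.0862 FPKM in every group. Among the fibroblast genes, Lum (0.0502 FPKM or less) and Fap (0.217 FPKM or less) stayed below 1 FPKM in every group. The label of fibroblasts was thus met by most of the listed fibroblast genes, with exceptions described below. In p53CryKO cells several mesothelium genes were expressed as well, and this check does not give the share of cells that were fibroblasts. Whole-gene FPKM of Trp53 (78.8 to 106 in the 4 groups), Cry1 (3.34 to 4.55) and Cry2 (0.488 to 4.54) does not test the knockout labels, since transcript outside a deleted part is still counted.

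Krt19 was by far the most abundant keratin in both genotypes, and 5 of the 6 keratins stood higher in p53CryKO than in p53KO cells, whereas Sprr1a stood much lower. Among the 6 genes with at least 1 FPKM in the higher genotype, 5 were at least 2-fold higher and 1 was at least 2-fold lower in untreated p53CryKO cells; over the 11685 genes at that level, 6.16% were higher and 7.69% lower by that fold. The genes were chosen on this contrast, and of the 5 higher genes only Krt19 reached 1 FPKM in untreated p53KO cells. Nothing is therefore read from that difference in share. The FPKM tables of the genotypes were normalized separately, which holds for every level set across genotypes below, and in bulk RNA more cells of a type and more RNA per cell cannot be told apart.

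**Figure D1:**
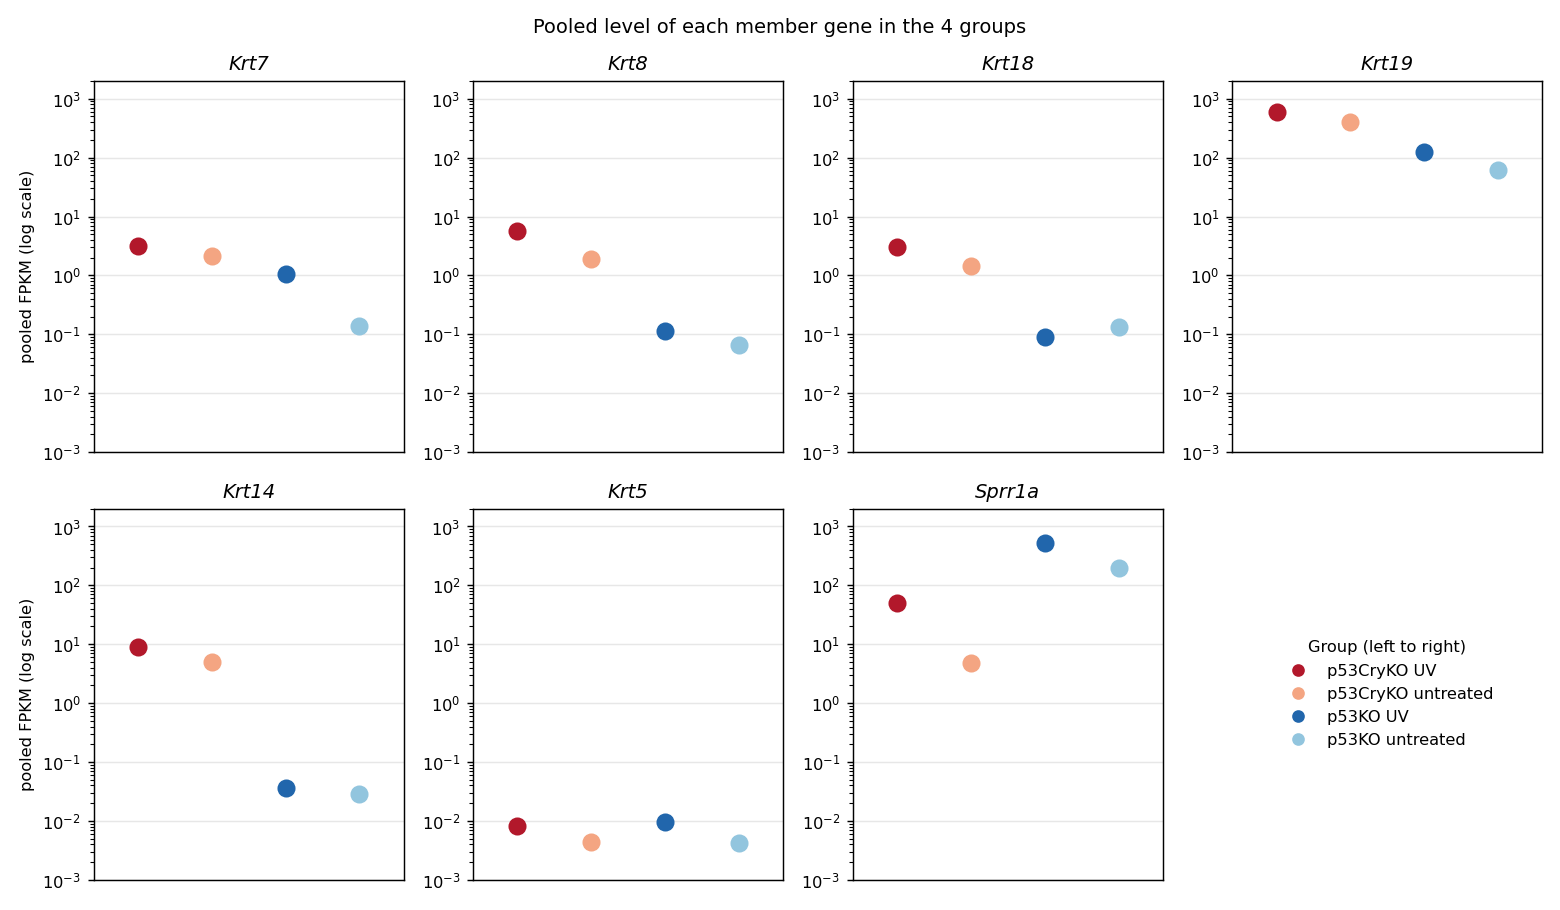
Pooled FPKM on a log scale for each of the 7 genes, with 1 point per group (left to right: UV-treated p53CryKO, untreated p53CryKO, UV-treated p53KO and untreated p53KO cells). Krt19 lay between 62.7 and 605 FPKM, Krt5 stayed below 0.01 FPKM in all groups, and Sprr1a had its highest points in p53KO cells.

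Krt19, the type I keratin without a tail domain, lies on chromosome 11 (GRCm38, bases 100140810 to 100148665, minus strand, ENSMUSG00000020911). It had 605 FPKM in UV-treated and 410 FPKM in untreated p53CryKO cells, against 123 FPKM in UV-treated and 62.7 FPKM in untreated p53KO cells. Both p53CryKO values lay above both p53KO values. By level it ranked 189 among 20184 genes above 0 in untreated p53CryKO cells and 1296 among 20052 in untreated p53KO cells. The untreated level was 6.54-fold higher in p53CryKO cells, and the level after UV was 4.93-fold higher.

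Krt8 and Krt18 are neighbours on chromosome 15, where Krt8 runs on the minus strand (bases 101996711 to 102004342, ENSMUSG00000049382) and Krt18 on the plus strand (bases 102028216 to 102032026, ENSMUSG00000023043), with 23873 bases between them. Krt8 had 5.76 FPKM in UV-treated and 1.93 FPKM in untreated p53CryKO cells, against 0.114 FPKM in UV-treated and 0.0648 FPKM in untreated p53KO cells. Krt18 had 3.01 FPKM in UV-treated and 1.45 FPKM in untreated p53CryKO cells, against 0.0901 FPKM in UV-treated and 0.132 FPKM in untreated p53KO cells. Both partners of the simple-epithelial pair were therefore above 1 FPKM in p53CryKO cells and near the floor of detection in p53KO cells. The untreated level was 29.7-fold higher for Krt8 and 11.0-fold higher for Krt18 in p53CryKO cells, and after UV these ratios were 50.4 and 33.4. The p53KO values rest on few fragments: if the smallest FPKM values per kilobase mark a single fragment, a reading that could not be checked against counts, untreated p53KO cells gave about 11.6 fragments of Krt8 and 17.4 of Krt18. The ratio of Krt8 to Krt18 FPKM was 1.91 in UV-treated and 1.33 in untreated p53CryKO cells, against 1.27 in UV-treated and 0.491 in untreated p53KO cells.

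The sequence upstream of the paired genes is given for comparison with that of Sprr1a, since these genes stood on opposite sides of the genotype contrast. Each line holds the 250 bases before the RefSeq start (GRCm38.p6), 5′ to 3′ on the gene's own strand, at chr15:102004343-102004592 (minus strand) for Krt8, chr15:102027966-102028215 (plus strand) for Krt18 and chr3:92485882-92486131 (minus strand) for Sprr1a. Capitals mark matches to TGANTCA, the AP-1 site searched on both strands, and to TATAAA, the TATA box searched on the gene's strand.
Sprr1a: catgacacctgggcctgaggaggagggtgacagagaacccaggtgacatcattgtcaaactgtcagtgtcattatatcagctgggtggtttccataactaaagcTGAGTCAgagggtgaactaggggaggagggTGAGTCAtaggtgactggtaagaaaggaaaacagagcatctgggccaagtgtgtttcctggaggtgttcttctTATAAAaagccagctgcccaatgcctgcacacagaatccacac
Krt8: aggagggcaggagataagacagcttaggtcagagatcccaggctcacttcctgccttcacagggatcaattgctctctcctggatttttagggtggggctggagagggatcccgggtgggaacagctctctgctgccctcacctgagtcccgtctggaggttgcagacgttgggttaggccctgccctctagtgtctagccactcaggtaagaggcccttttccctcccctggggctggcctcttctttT
Krt18: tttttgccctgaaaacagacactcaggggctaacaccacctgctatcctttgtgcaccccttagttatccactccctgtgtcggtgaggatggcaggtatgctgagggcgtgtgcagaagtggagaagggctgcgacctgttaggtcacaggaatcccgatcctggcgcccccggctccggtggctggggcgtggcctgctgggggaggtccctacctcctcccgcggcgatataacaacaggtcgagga
Sprr1a held 2 copies of TGAGTCA, beginning 146 and 116 bases before the start, and a TATAAA beginning 43 bases before it. AP-1, the dimer of Fos and Jun proteins, is known to bind that letter pattern. In Krt8 a TATAAA began at the last base before the annotated start and ran past it, which leaves the single capital T at the end of its line, and Krt18 held neither motif. Over 32851 RefSeq windows of 300 bases, TGANTCA was found in 7.81% and TATAAA in 8.32%; the E-box CACGTG, the site of the clock activators, was searched too and was found in 7.15% of windows and in none of the 6 genes that had an entry. These are letter matches only. Of the 7 genes 6 had an entry, and 4 of these began within 50 bases of the gene start in the files (the fourth, Krt5, held none of these motifs and is not printed).

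Krt7 (chromosome 15, bases 101411043 to 101430313, plus strand, ENSMUSG00000023039) had 3.13 FPKM in UV-treated and 2.12 FPKM in untreated p53CryKO cells, against 1.04 FPKM in UV-treated and 0.140 FPKM in untreated p53KO cells. Its genotype ratio was 15.2-fold in untreated cells and 3.01-fold after UV, both higher in p53CryKO cells.

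Krt14 and Krt5, partners in basal keratinocytes, did not go together. Krt14 (chromosome 11, bases 100203162 to 100207548, minus strand, ENSMUSG00000045545) had 8.97 FPKM in UV-treated and 4.95 FPKM in untreated p53CryKO cells, against 0.0367 FPKM in UV-treated and 0.0287 FPKM in untreated p53KO cells. That is a ratio of 172-fold in untreated and 244-fold in UV-treated cells, the highest of the 6 genes given a fold, on p53KO values of about 4.63 and 3.14 fragments by the same unchecked reading. Krt5 (chromosome 15, bases 101707070 to 101712891, minus strand, ENSMUSG00000061527) had 0.00821 FPKM in UV-treated and 0.00430 FPKM in untreated p53CryKO cells, against 0.00939 FPKM in UV-treated and 0.00420 FPKM in untreated p53KO cells. Each of these is about 1 fragment, so no fold is given and Krt5 counts as not detected above that. Krt14 shares long stretches with Krt16 and Krt17, and the sources used here do not say how reads common to them were assigned; these copies were listed at 0.0799 FPKM or less in every group.

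Sprr1a (chromosome 3, bases 92483952 to 92485895, minus strand, ENSMUSG00000050359) had 50.7 FPKM in UV-treated and 4.74 FPKM in untreated p53CryKO cells, against 516 FPKM in UV-treated and 199 FPKM in untreated p53KO cells. Even after UV, p53CryKO cells stayed below untreated p53KO cells. The untreated level was 41.9-fold lower in p53CryKO cells, which moved the gene to rank 7671 of 20184 genes, against rank 395 of 20052 in p53KO cells. After UV the level was 10.2-fold lower in p53CryKO cells.

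Ordered by level in untreated p53CryKO cells, Krt19 led, followed by Krt14 (4.95 FPKM), Sprr1a (4.74), Krt7 (2.12), Krt8 (1.93), Krt18 (1.45) and Krt5. In untreated p53KO cells the order was Sprr1a, Krt19, Krt7 (0.140), Krt18 (0.132), Krt8 (0.0648), Krt14 and Krt5. With no spread over samples, neighbours as close as Krt14 and Sprr1a in p53CryKO cells, or Krt7 and Krt18 in p53KO cells, cannot be told apart in order.

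**Figure D2:**
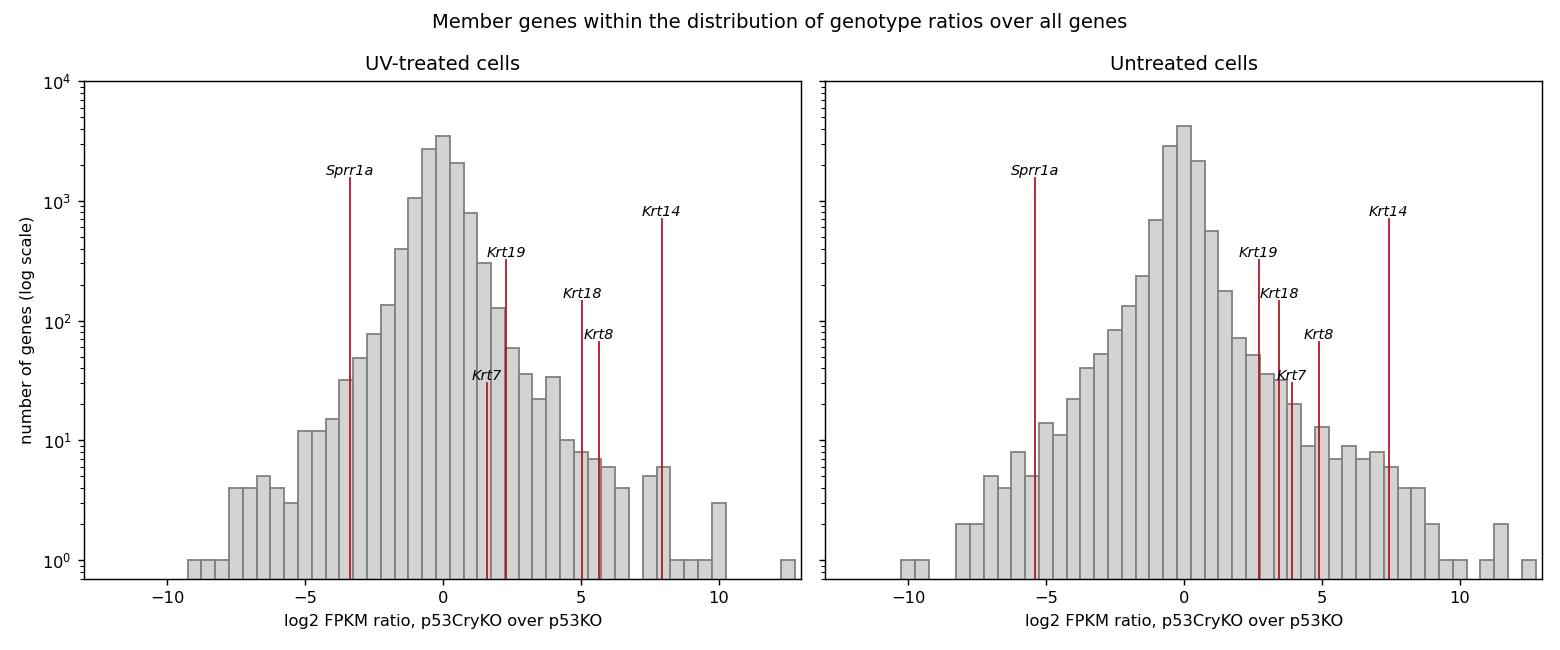
Number of genes (log scale) by log2 FPKM ratio of p53CryKO over p53KO cells, for UV-treated (left) and untreated cells (right), over genes with at least 1 FPKM in the higher genotype and above 0 in both. The lines mark the members other than Krt5, with 5 keratins from 2.71 to 7.43 and Sprr1a at -5.39 in untreated cells; the height of a line only separates the names.

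In the UV-treated cells the genotype contrast was again a single pooled value per group, and it is given with no test, since the genes were chosen with results of these data known. There the log2 ratio of p53CryKO over p53KO was 7.93 for Krt14, 5.66 for Krt8, 5.06 for Krt18, 2.30 for Krt19, 1.59 for Krt7 and -3.35 for Sprr1a. All 5 keratins at 1 FPKM were at least 2-fold higher and Sprr1a at least 2-fold lower, where 8.6% of 11648 genes were higher and 10.1% lower by that fold. Krt8, Krt18 and Krt14 reached 1 FPKM only in p53CryKO cells, so the filter fixed their side. In UV-treated p53KO cells they had 0.114, 0.0901 and 0.0367 FPKM. UV-treated and untreated cells of a genotype share their source. Of those 11648 genes, 79 had a higher ratio than Krt14, 100 than Krt8, 108 than Krt18, 264 than Krt19 and 460 than Krt7, and 139 had a lower ratio than Sprr1a.

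UV was followed by higher FPKM of most of these genes in both genotypes. In p53CryKO cells 5 of the 6 tested members rose, none fell and Krt7 was not called; in p53KO cells 3 of the 4 tested rose, none fell and Krt18 was not called (called from the authors' deposited tables at a q of at most 0.05, with the same counts at an unadjusted p under 0.05). Over all genes tested by the authors, 25.1% of 15872 rose and 27.2% fell in p53CryKO cells, and 23.9% of 15857 rose and 26.9% fell in p53KO cells. The untreated values that chose the genes enter these folds too. Krt5 was tested in neither genotype, and Krt8 and Krt14 were not tested in p53KO cells.

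Sprr1a had the largest UV response of the members in p53CryKO cells, where its FPKM rose 10.7-fold (log2 3.42 ± 0.30, error implied by the test statistic; q = 0.000161 in the authors' deposited table). In p53KO cells it rose 2.60-fold (log2 1.38 ± 0.29; q = 0.000169 in the authors' deposited table). The simple-epithelial pair rose in p53CryKO cells, Krt8 by a log2 change of 1.58 ± 0.31 and Krt18 by 1.06 ± 0.35 (q = 0.000161 each in the authors' deposited table). In p53KO cells Krt18 had a log2 change of -0.55 ± 1.09 (q = 0.564 in the authors' deposited table), and the Krt8 value, a log2 change of 0.82, was not tested. Krt14 rose in p53CryKO cells by 0.86 ± 0.29 (q = 0.000455 in the authors' deposited table).

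Krt19 and Krt7 had the larger log2 change in p53KO cells. Krt19 rose by 0.56 ± 0.27 in p53CryKO cells (q = 0.00540 in the authors' deposited table) and by 0.97 ± 0.30 in p53KO cells (q = 0.000169 in that table). Krt7 had a change of 0.56 ± 0.56 in p53CryKO cells (q = 0.205 in the authors' deposited table) and rose by 2.89 ± 1.58 in p53KO cells (q = 0.000169 in that table, with a test statistic of only 1.83). Whether the genotypes differ in these responses was not tested, since the untreated values that chose the genes enter the difference.

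The scale matters for these rises. The FPKM summed over protein-coding genes was higher after UV by 1.02 (log2) in p53CryKO and by 1.01 in p53KO cells, while the median gene moved by 0.05 in both. With groups set to equal coding FPKM, only Sprr1a in p53CryKO cells kept its call, at 2.40, in a test that uses the implied error, which is wide. The log2 changes of Krt8 (0.56) and Krt18 (0.04) in p53CryKO cells and of Krt7 (1.89) and Sprr1a (0.37) in p53KO cells stayed positive without a call, and the log2 changes of Krt7, Krt19 and Krt14 in p53CryKO cells (-0.46, -0.46 and -0.16) and of Krt19 in p53KO cells (-0.04) turned negative.

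**Figure D3:**
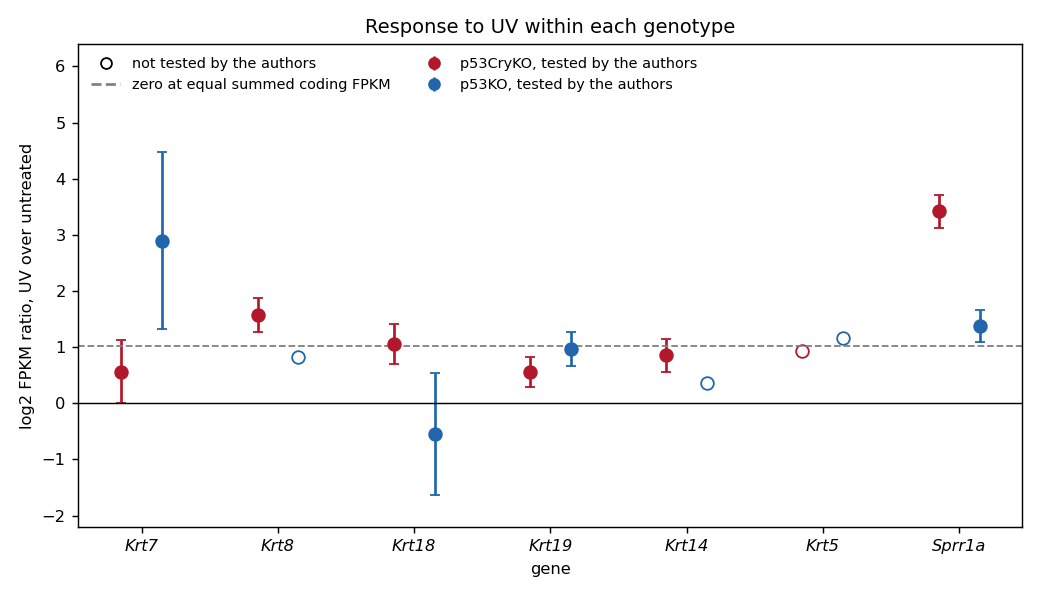
Log2 FPKM ratio of UV-treated over untreated cells for each gene, p53CryKO (red) left of p53KO (blue), with the standard error implied by the authors' test statistic; open points were not tested. The dashed line is where zero lies at equal summed coding FPKM, and Sprr1a in p53CryKO cells, at 3.42, stands farthest above it.

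Krt19 alone made up most of the keratin signal. Of 51 keratin genes (28 of type I and 23 of type II), 8 reached 1 FPKM in UV-treated and 8 in untreated p53CryKO cells, against 5 in UV-treated and 4 in untreated p53KO cells. Type I keratins summed to 621 FPKM in UV-treated and 419 FPKM in untreated p53CryKO cells, against 132 FPKM in UV-treated and 68.1 FPKM in untreated p53KO cells. Type II keratins, their obligate partners, summed to 12.6 FPKM in UV-treated and 10.6 FPKM in untreated p53CryKO cells, against 2.94 FPKM in UV-treated and 2.54 FPKM in untreated p53KO cells. Of these sums the members Krt7, Krt8 and Krt5 held 8.89 FPKM in UV-treated and 4.05 FPKM in untreated p53CryKO cells. In p53KO cells they held 1.16 FPKM after UV and 0.209 FPKM untreated. Type I transcripts thus exceeded type II transcripts by a ratio of 49.3 in UV-treated and 39.7 in untreated p53CryKO cells, against 44.9 in UV-treated and 26.8 in untreated p53KO cells. Krt19 supplied 95.4% of keratin FPKM in UV-treated and 95.3% in untreated p53CryKO cells, against 90.9% in UV-treated and 88.8% in untreated p53KO cells. With Krt19 left out, the type I to type II ratio was 1.32 in UV-treated and 0.901 in untreated p53CryKO cells, against 3.19 in UV-treated and 2.12 in untreated p53KO cells.

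Of the 45 other keratins, 14 were at 0 in all groups and 3 reached 1 FPKM in a group. Krt80, a type II keratin of many epithelia, had 3.42 FPKM in UV-treated and 6.20 FPKM in untreated p53CryKO cells, against 1.55 FPKM in UV-treated and 2.12 FPKM in untreated p53KO cells; it fell after UV in p53CryKO cells (log2 -0.86 ± 0.29; q = 0.000311 in the authors' deposited table). Krt10, the type I keratin of suprabasal epidermis, had 2.99 FPKM in UV-treated and 1.29 FPKM in untreated p53CryKO cells, against 5.71 FPKM in UV-treated and 1.24 FPKM in untreated p53KO cells, and it rose after UV in both. Krt13, of internal stratified epithelia, had 1.26 FPKM in UV-treated and 1.52 FPKM in untreated p53CryKO cells, against 3.05 FPKM in UV-treated and 3.79 FPKM in untreated p53KO cells. The higher level in untreated p53CryKO cells was therefore not general to keratins, since Krt13 was higher in p53KO cells and Krt10 was similar in both.

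Sprr1a lies in the SPRR cluster, whose 16 listed genes span bases 92215835 to 92500493 of chromosome 3. All 7 of them that were above 0 in both genotypes had the lower untreated FPKM in p53CryKO cells. Sprr1a, 1 of the 7, was chosen on this contrast. Sprr2f (0.0196 FPKM in p53CryKO, 0.0935 in p53KO cells) and Sprr3 (0.00821 and 0.0242) were near the floor. Genes at 0 in 1 genotype are left out, such as Sprr1b (0.0132 and 0) and Sprr2g (0 and 0.390). The share over all genes was not computed for this count. Sprr2h had 1.64 FPKM in UV-treated and 0.310 FPKM in untreated p53CryKO cells, against 6.06 FPKM in UV-treated and 1.98 FPKM in untreated p53KO cells, and it rose after UV in both. Sprr2k had 3.81 FPKM in UV-treated and 1.83 FPKM in untreated p53CryKO cells, against 6.45 FPKM in UV-treated and 7.39 FPKM in untreated p53KO cells. The Sprr2 genes are near-identical copies, so reads may be split among them. Sprr1b, the nearest relative of Sprr1a, was at or below 0.0267 FPKM in every group.

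**Figure D4:**
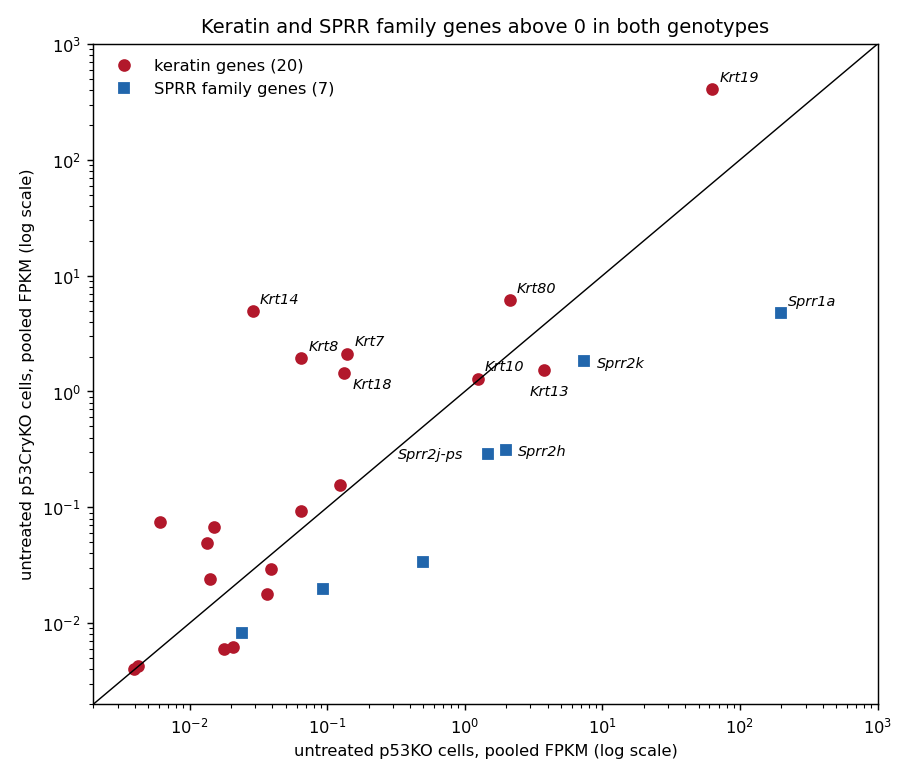
Untreated pooled FPKM on log axes, p53CryKO (vertical) against p53KO cells (horizontal), for 20 keratin genes and 7 SPRR family genes above 0 in both; names are given from 1 FPKM in the higher genotype. All 7 SPRR points lie below the line of equal levels, while the named keratins lie above it apart from Krt13. The member genes among them were chosen on this contrast.

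The list of the SPRR family and cornified envelope held 29 genes besides Sprr1a. Of the 6 at 1 FPKM or more in untreated cells, 4 were at least 2-fold lower and 1 higher in p53CryKO cells. Among the 4, Lor, Sprr2h and Sprr2j-ps reached that level only in p53KO cells. The filter fixed their side, which also weighs on the median given here. Over all genes at that level 7.69% were lower and 6.16% higher. The median log2 ratio was -2.18 for the 6 genes and -0.07 over all genes. Of the 24 above 0 in either genotype, 14 were lower and 7 higher. The 1 higher gene was Lce1g, of the late cornified envelope family, with 4.38 FPKM in untreated p53CryKO and 1.56 FPKM in untreated p53KO cells. Lor, the gene of loricrin, the main protein of the cornified envelope, had 0.920 FPKM in UV-treated and 0.506 FPKM in untreated p53CryKO cells, against 9.81 FPKM in UV-treated and 2.93 FPKM in untreated p53KO cells. Sbsn (suprabasin) stayed within 2-fold in untreated cells, with 20.1 FPKM in UV-treated and 10.4 FPKM in untreated p53CryKO cells, against 7.85 FPKM in UV-treated and 5.66 FPKM in untreated p53KO cells. After UV, 7 of 10 tested list genes rose and none fell in p53CryKO cells, and 3 of 13 rose and none fell in p53KO cells, by q in the authors' deposited tables. Over all tested genes 25.1% rose and 27.2% fell in p53CryKO cells, and 23.9% rose and 26.9% fell in p53KO cells. The rises in p53KO cells were thus near the share over all genes. The median log2 change was 1.30 in p53CryKO and 0.70 in p53KO cells, while it was 0.28 in p53CryKO and -0.31 in p53KO cells at equal coding FPKM.

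A list of keratin partners and desmosome linkers was followed next, with Krtcap2, Krtcap3 and Tchp among its genes. Of 21 in the files, 9 reached 1 FPKM in untreated cells, and 3 of these were at least 2-fold higher and none lower in p53CryKO cells (median log2 ratio 0.36). Over all genes at that level 6.16% were higher and 7.69% lower. Of 17 above 0 in either genotype, 7 were higher and 1 lower. Perp, a desmosome protein and p53 target, had 20.1 FPKM in UV-treated and 11.5 FPKM in untreated p53CryKO cells, against 0.334 FPKM in UV-treated and 0.113 FPKM in untreated p53KO cells; all groups lack p53. Jup (plakoglobin) had 24.7 FPKM in UV-treated and 22.2 FPKM in untreated p53CryKO cells, against 5.12 FPKM in UV-treated and 6.46 FPKM in untreated p53KO cells. Dsp (desmoplakin), which anchors keratins in desmosomes, was at 0.402 FPKM in untreated p53CryKO and 0.00495 FPKM in untreated p53KO cells. Plec (plectin), a linker that also serves vimentin, was near the same level in both, at 28.3 FPKM in untreated p53CryKO and 31.2 FPKM in untreated p53KO cells, and it fell after UV in both.

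Markers of other cell types moved with the keratin contrast, and their part in it was not tested. All 8 mesothelium genes at 1 FPKM or more were at least 2-fold higher in untreated p53CryKO cells (Gpm6a against a value of 0), where 6.16% of all genes were. Of these 8, Msln alone reached 1 FPKM in untreated p53KO cells, so that count was nearly fixed by the filter. Of the 12 above 0 in either genotype, 10 were at least 2-fold higher and none lower. After UV 7 of the 8 at 1 FPKM or more were higher, where 8.6% of all genes were. Msln alone reached 1 FPKM in UV-treated p53KO cells as well, so this count too was nearly fixed by the filter. Mesothelium is the lining of body cavities and is known to express Krt7, Krt8, Krt18 and Krt19. The list of 12 summed to 392 FPKM in UV-treated and 175 FPKM in untreated p53CryKO cells, against 42.0 FPKM in UV-treated and 14.9 FPKM in untreated p53KO cells. Msln (mesothelin) had 254 FPKM in UV-treated and 77.5 FPKM in untreated p53CryKO cells, against 40.3 FPKM in UV-treated and 13.7 FPKM in untreated p53KO cells. Upk3b, a uroplakin used as a mesothelial marker, had 49.3 FPKM in UV-treated and 24.7 FPKM in untreated p53CryKO cells, against 0.0423 FPKM in UV-treated and 0.00390 FPKM in untreated p53KO cells. Wt1, a transcription factor of mesothelium, had 4.75 FPKM in UV-treated and 20.4 FPKM in untreated p53CryKO cells, against 0.0164 FPKM in UV-treated and 0.0656 FPKM in untreated p53KO cells. Gpm6a and Muc16 were listed at 0 in untreated p53KO cells, and no gene of the list was at 0 in p53CryKO cells.

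Epithelial and keratinocyte genes moved in part. Cdh1 (E-cadherin) had 2.32 FPKM in UV-treated and 3.33 FPKM in untreated p53CryKO cells, against 0.0341 FPKM in UV-treated and 0.0247 FPKM in untreated p53KO cells. Of the 30 epithelial genes 4 reached 1 FPKM in untreated cells, with 3 at least 2-fold higher and none lower in p53CryKO cells. The 3, Cdh1, Cgn and Esrp2, reached that level only in p53CryKO cells, so the filter fixed their side. Over all genes at that level 6.16% were higher and 7.69% lower. Of the 26 above 0 in either genotype 7 were higher and 7 lower (median log2 ratio -0.03 over 20 with a fold). The list summed to 20.3 FPKM in UV-treated and 37.7 FPKM in untreated p53CryKO cells, against 15.9 FPKM in UV-treated and 27.9 FPKM in untreated p53KO cells. Cgn had 2.66 FPKM in untreated p53CryKO and 0.118 FPKM in untreated p53KO cells, and Esrp2 had 1.56 FPKM and 0.256 FPKM. Cdh3 stayed within 2-fold, at 29.1 FPKM in untreated p53CryKO and 26.1 FPKM in untreated p53KO cells. Grhl2, Esrp1 and Cldn4, which define simple epithelia, stayed at or below 0.0396 FPKM in every group. Trp63, the regulator of basal keratinocytes and of Krt5 and Krt14, had 0.0177 FPKM in UV-treated and 0.0360 FPKM in untreated p53CryKO cells, against 0.652 FPKM in UV-treated and 1.20 FPKM in untreated p53KO cells, opposite in direction to Krt14.

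Fibroblast genes leaned the other way. None of 22 fibroblast and mesenchyme genes at 1 FPKM was at least 2-fold higher and 8 were lower in untreated p53CryKO cells (median log2 ratio -0.75). Over all genes at that level 6.16% were higher and 7.69% lower. The list summed to 8084 FPKM in UV-treated and 4900 FPKM in untreated p53CryKO cells, against 7918 FPKM in UV-treated and 5939.5 FPKM in untreated p53KO cells. Pdgfra, a receptor of mesenchymal cells, had 1.27 FPKM in UV-treated and 3.26 FPKM in untreated p53CryKO cells, against 5.66 FPKM in UV-treated and 17.7 FPKM in untreated p53KO cells. Of 13 trophoblast genes 6 were at 0 in all groups. Of 5 at 1 FPKM in untreated cells 2 were at least 2-fold higher and none lower in p53CryKO cells, against those same shares over all genes.

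**Figure D5:**
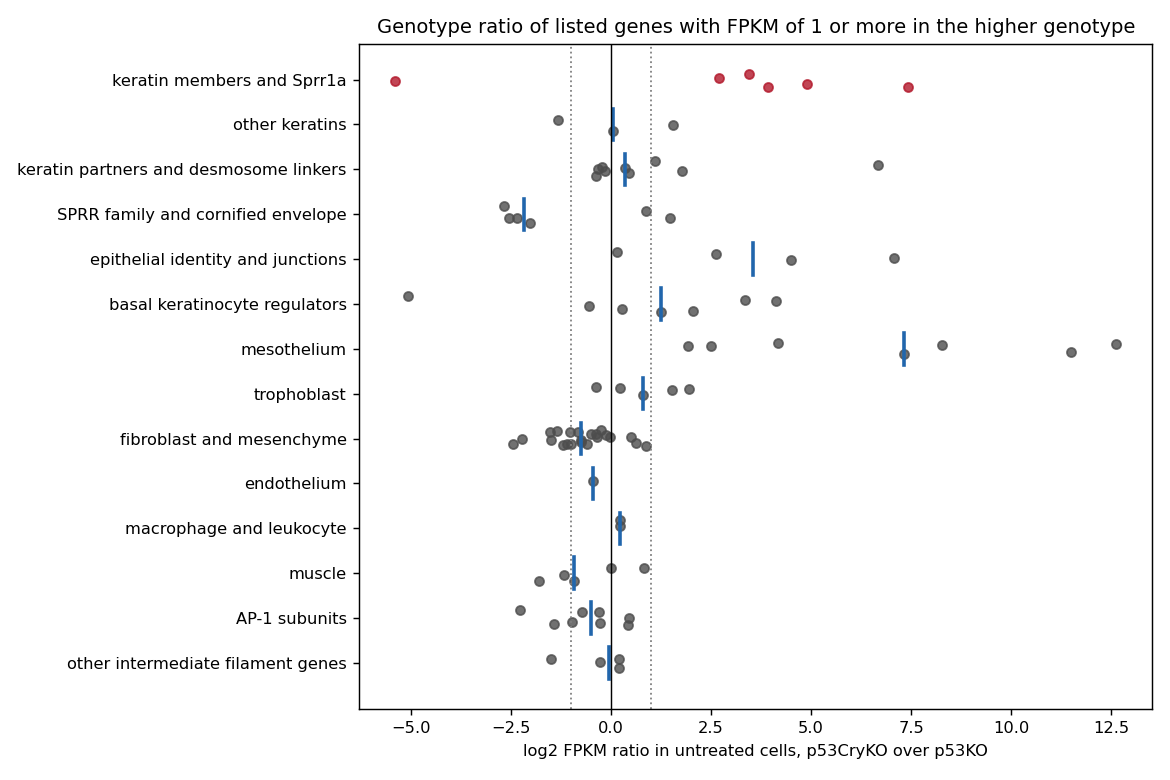
Log2 ratio of untreated FPKM, p53CryKO over p53KO, for genes of each list with at least 1 FPKM in the higher genotype (points), with list medians (blue bars) and dotted lines at a 2-fold difference; Krt5 and Gpm6a, the latter listed at 0 in p53KO cells, are not drawn. The mesothelium points all lie right of the 2-fold line, with a median of 7.32 over 7 genes, and the fibroblast median lies at -0.75. Of the mesothelium genes only Msln reached 1 FPKM in untreated p53KO cells.

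Profiles over the 4 pooled groups were compared by the root-mean-square distance of centred log2(FPKM + 1) values among 10811 genes, as a description of 4 points. Plac1, a gene of placenta, came closest to Krt18 (distance 0.0536), with 4.48 FPKM in UV-treated and 2.60 FPKM in untreated p53CryKO cells, against 0.498 FPKM in UV-treated and 0.675 FPKM in untreated p53KO cells. Serpinb9b came closest to Krt19 (0.0957), Stbd1 to Krt7 (0.0964), Tmc6 to Krt8 (0.142) and Chn2 to Krt14 (0.162). Nkain4, a gene of the mesothelium list, was the third closest to Krt14. Krt5 was too flat and too low for a nearest profile to carry meaning.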

How the data were processed

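For each genotype the authors deposited a Cuffdiff table of 39175 genes with a single FPKM for each gene and group, replicates pooled, per the file headers. The deposited tables further give a test statistic (a score with a sign), a p-value and a q-value for the UV response; no p fell below 5e-05. The submitters' processing notes list FastQC (0.11.5), Trimmomatic (0.35), STAR (2.5.2), Cufflinks, Cuffdiff and GRCm38, without options. The labels call the replicates biological but name no animals, so p-values cover the spread between these samples, which may be technical. Genotypes were normalized in separate tables, and no test crosses them.

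From the FPKM, log2 ratios were computed with no pseudocount, and a UV response was called where the authors' q was at most 0.05. The standard error is the size of the log2 ratio over that of the statistic, and it is wide: the deposited p-values correspond to normal statistics larger by a median factor of 1.44. Genotype ratios used genes with at least 1 FPKM in the higher genotype. A gene at that level in only 1 genotype can only be higher there. Counts of higher and lower genes are thus partly fixed by the filter, in the lists and over all genes alike. The calculations were tested on simulated data. The members and the 13 gene lists (245 entries, 243 in the files) were chosen with earlier results of these data known. Named genes are the members, per list up to 4 of highest FPKM and up to 4 of largest untreated ratio, and the 3 nearest profiles of each member (those of Sprr1a are not reported here); Dsp, Epcam, Grhl2, Esrp1, Cldn4, Muc16, Krt16, Krt17, Lce1g and Sprr1b fall outside that rule and were named after their values were seen. Other settings were stricter thresholds, pseudocounts of 0.1 and 1, an FPKM filter, median centring and equal coding FPKM. GENCODE M21 matched 37605 gene IDs (96.0%). Python 3.11.15, pandas 2.3.3, numpy 2.4.6, scipy 1.17.1 and matplotlib 3.10.9 were used.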

Additional observations from a re-analysis of the deposited data

Results flagged for a closer look

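Among 75 named or member genes, 2 were called after UV in opposite directions in the genotypes, by q in the authors' deposited tables; the difference between the genotypes was not tested. Klf4, a transcription factor of epithelial barrier formation, had 6.78 FPKM in UV-treated and 12.8 FPKM in untreated p53CryKO cells, a log2 change of -0.92, against 3.28 FPKM in UV-treated and 1.24 FPKM in untreated p53KO cells, a log2 change of 1.40. S100a4, a calcium-binding protein of fibroblasts, had 1306 FPKM in UV-treated and 891 FPKM in untreated p53CryKO cells, a log2 change of 0.55, against 941 FPKM in UV-treated and 1570.1 FPKM in untreated p53KO cells, a log2 change of -0.74. At equal coding FPKM the Klf4 values were -1.94 in p53CryKO and 0.39 in p53KO cells, still opposite in sign, while those of S100a4 were -0.47 in p53CryKO and -1.75 in p53KO cells.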

How the results depend on the processing

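After UV, the count of members that rose in p53CryKO cells was 5 as reported, 3 where a 2-fold change was also required and 1 at equal coding FPKM; in p53KO cells it was 3 as reported and 0 at equal coding FPKM (0 also at an unadjusted p under 0.05). At equal coding FPKM the log2 changes that turned negative were -0.46 for Krt7, -0.46 for Krt19 and -0.16 for Krt14 in p53CryKO cells and -0.039 for Krt19 in p53KO cells; no member fell under any setting run. With median centring the counts were 4 and 2, where Krt19 in p53CryKO and Krt7 in p53KO cells were not called; both scalings test with the wide implied error. Krt5, at about 1 fragment, had an untreated log2 ratio of 0.033, which was -0.031 at equal coding FPKM. The other genotype ratios kept their direction under both pseudocounts and both scalings, but this was fixed in advance. A pseudocount added to both groups cannot change which is higher. Each scaling moves all genes alike and by little. The smallest of these ratios, a log2 of 1.59 for Krt7 after UV, was 1.67 with median centring and 1.51 at equal coding FPKM. The counts of 5 higher and 1 lower also held, where only the pseudocounts could have changed them. With a pseudocount of 1 the Krt7 log2 ratio after UV was 1.02, near the 2-fold limit. Low genes shrank: with a pseudocount of 1 the untreated log2 ratio of Krt14 was 2.53 in place of 7.43. Including listed genes of any level above 0, entries at least 2-fold higher in untreated p53CryKO cells were 54 in place of 22 and lower entries 63 in place of 19. Over single genes, 88 alternative values kept their side of the threshold or, where untested, moved by less than 1.5-fold, 14 moved by more, 9 lost a call and 4 reversed. Part of the 88 was fixed in advance. For the genotype ratios both scalings move every gene alike, by less than 1.5-fold. For the UV responses a stricter threshold or filter leaves the value as it was and can only remove a call, and a pseudocount keeps the authors' q. Of the counts per list, 15 moved and 11 did not. No paired analysis was possible because the files hold pooled values, and for the same reason leaving out a replicate was not run. Depth limits Krt8, Krt18 and Krt14 in p53KO cells and Krt5 in all groups.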

Other observations

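Among subunits of AP-1, the Fos and Jun dimer, 2 of 8 at 1 FPKM or more were at least 2-fold lower and none higher in untreated p53CryKO than in untreated p53KO cells, where 7.69% of all genes were lower. After UV 4 of 8 were lower and none higher, where 10.1% of all genes were lower. Of 10 genes, 5 of 9 tested rose and 3 fell in p53CryKO cells and 5 of 9 rose and 2 fell in p53KO cells, by q in the authors' deposited tables. Over all tested genes 25.1% rose and 27.2% fell in p53CryKO cells, and 23.9% rose and 26.9% fell in p53KO cells. At equal coding FPKM 1 of the 5 rises in p53CryKO and 0 of the 5 in p53KO cells turned negative. Junb had 62.5 FPKM in UV-treated and 27.3 FPKM in untreated p53CryKO cells, against 225 FPKM in UV-treated and 72.9 FPKM in untreated p53KO cells. Fosb had 2.10 FPKM in UV-treated and 0.213 FPKM in untreated p53CryKO cells, against 6.48 FPKM in UV-treated and 1.04 FPKM in untreated p53KO cells. Fosl1, a subunit known from keratinocytes, had 30.1 FPKM in UV-treated and 56.0 FPKM in untreated p53CryKO cells, against 30.5 FPKM in UV-treated and 68.0 FPKM in untreated p53KO cells, and it fell after UV in both.

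Of 4 other intermediate filament genes at 1 FPKM in untreated cells, 1 was at least 2-fold lower and none higher in p53CryKO cells, where 7.69% of all genes were lower. The lower gene was Nes (nestin), which had 2.99 FPKM in UV-treated and 1.77 FPKM in untreated p53CryKO cells, against 8.48 FPKM in UV-treated and 4.99 FPKM in untreated p53KO cells. Lmnb1 (lamin B1) had 5.11 FPKM in UV-treated and 44.5 FPKM in untreated p53CryKO cells, against 4.12 FPKM in UV-treated and 38.5 FPKM in untreated p53KO cells, and it fell after UV in both. Of 5 muscle genes at 1 FPKM in untreated cells, none was at least 2-fold higher and 2 were lower in p53CryKO cells, where 7.69% of all genes were lower. Among the 2 was Cnn1 (calponin) with 45.3 FPKM in UV-treated and 18.6 FPKM in untreated p53CryKO cells, against 238 FPKM in UV-treated and 64.5 FPKM in untreated p53KO cells. The endothelium list had 1 gene and the leukocyte list 2 genes at 1 FPKM in untreated cells, none of them 2-fold apart. Of 7 basal keratinocyte regulators at that level, 4 were at least 2-fold higher and 1 lower in untreated p53CryKO cells, where 6.16% of all genes were higher and 7.69% lower. Of the 12 above 0 in either genotype 4 were higher and 5 lower.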
